A study of Homo sapiens with 12 samples.

Results

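The inhibitor of DNA binding genes ID1, ID2, ID3 and ID4 were followed together with 6 genes that carry, tune or damp bone morphogenetic protein (BMP) signalling. These 6 were the inhibitory SMAD genes SMAD6 and SMAD7, the receptor-activated SMAD gene SMAD9, the ligand gene BMP4, the pseudoreceptor gene BAMBI and the co-receptor gene ENG. The members were found by gene symbol, and each matched 1 of the 60612 gene rows of the deposited count table. All 10 passed the filter on low counts, which left 17779 genes to test. They were chosen by the deposited counts themselves, as a set in which several genes were already known to lie lower at 360 min than at 0 min. Their differences between 360 min and earlier times are therefore given as a description, with no p-value. Where the number of members past the threshold is printed for 360 min, nothing is read from it. The comparisons of 10 and 30 min with 0 min reuse the 0 min libraries that entered this choice, so they are not independent of it either, and only 30 min against 10 min uses neither group.

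Gene expression was measured in HepG2, a permanent line from a human liver tumour with many functions of hepatocytes. Cells received 0.001 µM 2,4-D, a phenoxy weed killer that mimics the plant hormone auxin, for 10, 30 or 360 min, and cells at 0 min are labelled untreated. Each of the 4 groups had 3 biological replicates of this 1 cell line, and polyadenylated RNA was sequenced from the 12 samples. No untreated libraries from 10, 30 or 360 min were used here, so exposure and elapsed time cannot be told apart. The 3 exposure times were all set against the same 0 min libraries, so those comparisons are not independent of each other.

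BMPs are secreted ligands that join type I and type II receptor kinases on the cell surface. The activated receptors phosphorylate SMAD1, SMAD5 and SMAD9, which pair with SMAD4 and enter the nucleus to bind target genes. The ID genes are classical direct targets of this route. Their products are helix-loop-helix proteins without a DNA-binding region, and they hold E proteins such as TCF3 away from DNA. SMAD6, SMAD7 and BAMBI are also induced by the pathway in many cell types and act back on it as inhibitors. In hepatocytes the best known output is HAMP, the gene of the iron hormone hepcidin.

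The sequence next to the start sites of these genes was examined, since most of the members shared 1 direction at 360 min. RefSeq promoter sequences (GRCh38.p14) were found for all 10 members and gave 14 windows of the 250 bases before a start site. The 3 well expressed ID genes, SMAD6 and BAMBI are printed 5′ to 3′ on the strand of the gene, because they show how the SMAD-type motifs differ between members. Capitals mark GGCGCC, a GC-rich motif bound by BMP-activated SMADs, and GTCT with its reverse complement AGAC, the core of the general SMAD-binding element. GGCGCC is its own reverse complement, and both strands were searched for each motif. The windows are chr20:31605039-31605288 (plus strand) for ID1, chr2:8681806-8682055 (plus strand) for ID2, chr1:23559502-23559751 (minus strand) for ID3, chr15:66701986-66702235 (plus strand) for SMAD6 and chr10:28677271-28677520 (plus strand) for BAMBI.
ID1: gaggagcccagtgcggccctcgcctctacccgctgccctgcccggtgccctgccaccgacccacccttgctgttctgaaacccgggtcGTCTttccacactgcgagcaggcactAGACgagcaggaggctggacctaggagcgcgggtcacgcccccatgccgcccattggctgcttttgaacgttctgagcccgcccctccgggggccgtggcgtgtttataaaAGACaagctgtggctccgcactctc
ID2: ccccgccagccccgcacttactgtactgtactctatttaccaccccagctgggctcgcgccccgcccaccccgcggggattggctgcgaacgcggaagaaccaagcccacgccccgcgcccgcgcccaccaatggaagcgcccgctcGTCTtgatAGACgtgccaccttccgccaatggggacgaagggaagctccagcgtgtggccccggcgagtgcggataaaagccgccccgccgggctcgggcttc
ID3: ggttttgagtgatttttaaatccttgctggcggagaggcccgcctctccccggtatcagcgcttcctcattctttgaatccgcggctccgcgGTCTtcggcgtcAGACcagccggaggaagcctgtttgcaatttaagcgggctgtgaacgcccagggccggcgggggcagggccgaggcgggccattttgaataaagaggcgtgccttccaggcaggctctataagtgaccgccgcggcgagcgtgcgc
SMAD6: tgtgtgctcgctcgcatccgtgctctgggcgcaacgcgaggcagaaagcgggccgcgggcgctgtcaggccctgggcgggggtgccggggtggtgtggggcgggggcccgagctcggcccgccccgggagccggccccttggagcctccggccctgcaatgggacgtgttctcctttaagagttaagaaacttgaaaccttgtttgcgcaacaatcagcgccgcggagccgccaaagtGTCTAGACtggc
BAMBI: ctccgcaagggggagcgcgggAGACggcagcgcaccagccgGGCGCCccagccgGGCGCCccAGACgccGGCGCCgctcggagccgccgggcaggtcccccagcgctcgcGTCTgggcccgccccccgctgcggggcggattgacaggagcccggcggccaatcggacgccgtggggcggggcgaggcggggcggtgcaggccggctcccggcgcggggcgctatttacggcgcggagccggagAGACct

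In BAMBI, GGCGCC occurred 3 times, beginning 209, 196 and 181 bases before the start site, and GTCT or AGAC occurred 4 times. None of the ID windows held GGCGCC, whereas 1 of the 3 BMP4 windows, from the alternative start site at the highest coordinate, held it once. GGCGCC was thus in 2 of the 14 member windows. It was in 16.4% of all 35116 RefSeq windows of the same length and in 23.6% of the 15888 windows of genes tested here, and 3 or more copies were in 0.806% of the tested genes' windows. GTCT or AGAC was in 13 of the 14 member windows, but also in 75.5% of the tested genes' windows. The ID1 window held 3 copies, ID2 and ID3 held 2 each, and in SMAD6 the 2 copies lay side by side 12 and 8 bases before the start. ID1 also held the TATA sequence TATAAA on both strands, in 2 overlapping matches beginning 33 and 31 bases before the start. TATAAA was in 3 of the 14 member windows and in 6.18% of the tested genes' windows. The E-box CANNTG, the motif read by E proteins, was in 6 of the 14 against 55.3%, and the cyclic AMP response half-site TGACG was in 1 of the 14 against 27.0%. These matches describe letters in short windows. More distant elements, such as the BMP response element known upstream of ID1, lie outside them and were not examined.

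Total counts per library ran from 29766148 to 83539763, so that 3 counts, the floor below which a 0 says little, stood between 0.0354 and 0.102 CPM (read counts relative to library size). All CPM values are scaled by TMM, a normalization for library composition. The mitochondrial share of counts was 3.55% to 4.39% in 7 libraries (0 min replicate 1, every 10 min library, 30 min replicates 2 and 3, and 360 min replicate 3) and 2.52% to 2.74% in the other 5. All 9 hepatocyte markers were expressed, with a summed level of 31806 to 32931 CPM at 360 min and 28446 to 30868 CPM at 0 min. The 7 endothelial markers summed to 2.04 to 2.28 CPM at 360 min and 1.63 to 2.21 CPM at 0 min, with KDR and EMCN at 0 in every library. The 7 stromal markers summed to 58.2 to 62.9 CPM at 360 min and 51.4 to 57.8 CPM at 0 min, nearly all from ACTA2, with COL1A2 and DCN at 0 in every library. The 5 leukocyte markers summed to 54.7 to 58.3 CPM at 360 min and 51.7 to 59.6 CPM at 0 min, with PTPRC at 0 in every library.

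The members differed widely in level. Per kilobase of merged exon, ID1 stood highest at 360 min at 50.3 ± 1.38 CPM per kb (SD, n = 3), followed by BMP4 at 42.0 ± 0.50, ID2 at 27.8 ± 1.96 and ID3 at 16.8 ± 1.36 CPM per kb, and none of these 4 ranges overlapped. The order at 0 min was another one. There ID1 stood at 165 ± 16.8 CPM per kb, ID3 at 48.0 ± 2.82 and ID2 at 45.8 ± 1.67 CPM per kb overlapped each other, and BMP4 followed at 36.3 ± 1.68 CPM per kb. The other members came below them at both times, with BAMBI at 8.99 ± 0.38 CPM per kb at 360 min and 17.8 ± 0.80 CPM per kb at 0 min. ENG, SMAD7, SMAD6 and SMAD9 followed in that order, at 4.08, 2.35, 1.00 and 0.599 CPM per kb at 360 min and 6.81, 4.95, 1.50 and 1.11 CPM per kb at 0 min. ID4 was the lowest, at 0.221 CPM per kb at 360 min and 0.376 CPM per kb at 0 min. At 360 min BMP4 thus stood near ID1 per kilobase. In CPM, not corrected for length, BMP4 was the higher, at 128 to 131 CPM against 60.2 to 63.6 CPM for ID1. The order per kilobase rests on exons merged over all transcripts, 3082 bases for BMP4 (9 transcripts) and 1233 bases for ID1 (2 transcripts). A single transcript can be shorter than the merged length. In bulk RNA, fewer cells expressing a gene and less RNA per cell cannot be told apart.

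**Figure D1:**
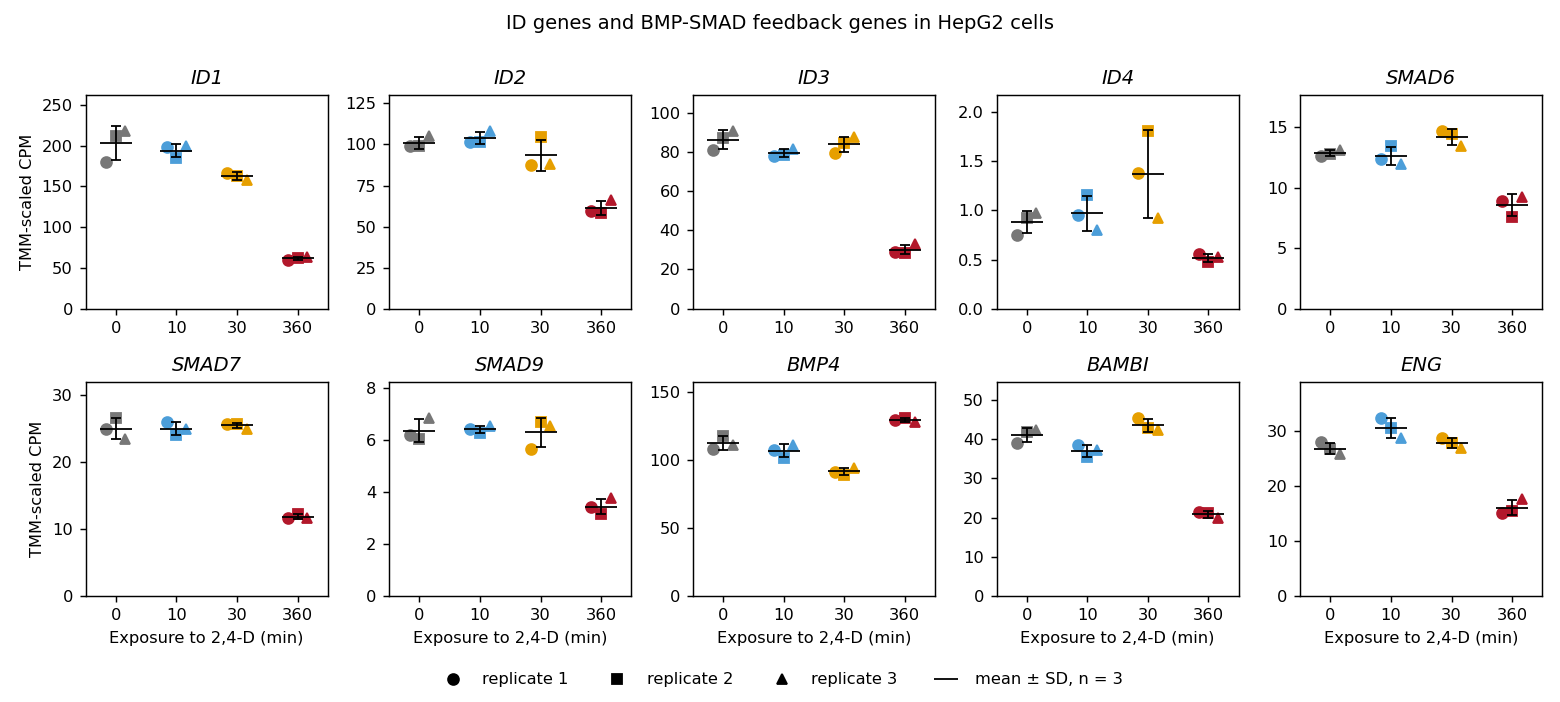
TMM-scaled CPM of the 10 genes (vertical axes, each from 0) at 0, 10, 30 and 360 min of exposure (horizontal axis); symbols are replicates, and the line and bars are the mean and SD of 3 libraries. The genes other than BMP4 have all 360 min libraries below every other library, and BMP4 has its lowest values at 30 min (88.8 to 94.0 CPM) and its highest at 360 min (128 to 131 CPM).

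Among the ID genes, ID1 had the largest log2 fold change between 360 and 0 min. In replicates 1, 2 and 3 it stood at 180, 211 and 219 CPM at 0 min, 198, 184 and 199 CPM at 10 min, 167, 163 and 158 CPM at 30 min, and 60.2, 62.2 and 63.6 CPM at 360 min. Libraries at 0 and 10 min overlapped, every 30 min library lay below them, and the 360 min libraries lay far below all others. ID1 was 3.28-fold lower at 360 min than at 0 min, a log2 fold change of -1.71 ± 0.06 (SE). ID1 lies on chromosome 20 (GRCh38, 31605283 to 31606515, plus strand).

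At 30 min a smaller difference was measured, against the same 0 min libraries that entered the choice of members. ID1 fell at 30 min by 0.32 on the log2 scale relative to 0 min (SE 0.06, edgeR quasi-likelihood adjusted p = 0.026, 3 of 3 libraries below all 0 min libraries). With a term for replicate number in the fit, or with the compared groups fitted alone, ID1 did not pass. It was called in 8 of 16 alternative settings. The 0 min replicates were uneven, and the call rested on more than 1 of them. The adjusted p was 0.129 without 0 min replicate 2, 0.126 without 0 min replicate 3, and 0.069, 0.097 and 0.131 without 30 min replicates 1, 2 and 3. Without 0 min replicate 1, the lowest of its group and the one with the high mitochondrial share, it was 2.5e-04, and with that library as the lone 0 min library the log2 fold change was -0.14 (adjusted p = 0.467). Against 10 min, where no library had entered the choice, the 30 min log2 fold change was -0.25 ± 0.06. This difference did not pass by edgeR (adjusted p = 0.096), while DESeq2 gave an adjusted p of 0.0017. It was called in 2 of 15 alternative settings, DESeq2 among them. At 10 min ID1 stood at -0.07 ± 0.06 against 0 min (adjusted p = 0.715, 95% interval -0.20 to 0.06).

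ID3, which is close to ID1 in sequence and in its known regulation by BMPs, had no call at 30 min. It stood at 80.8, 87.3 and 90.8 CPM at 0 min, 78.1, 78.5 and 81.5 CPM at 10 min, 79.6, 84.3 and 87.5 CPM at 30 min, and 28.9, 28.6 and 33.0 CPM at 360 min. The first 3 times overlapped, and only the 360 min libraries stood apart. ID3 at 360 min was 2.86-fold lower than at 0 min (log2 fold change -1.52 ± 0.06). At 30 min its log2 fold change against 0 min was -0.04 ± 0.06 (adjusted p = 0.899, 95% interval -0.17 to 0.08), an interval that lies above that of ID1 (-0.45 to -0.19); the difference between the genes was not itself tested. ID3 lies on chromosome 1 (23557918 to 23559794, minus strand).

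ID2 had a smaller difference. Its levels were 98.9, 98.9 and 105 CPM at 0 min, 102, 102 and 108 CPM at 10 min, 87.6, 104 and 88.4 CPM at 30 min, and 59.3, 58.4 and 66.3 CPM at 360 min. The 360 min libraries lay below all others, with replicate 3 the highest of them, and 30 min replicate 2 lay within the 0 min range. ID2 at 360 min was 1.65-fold lower than at 0 min (log2 fold change -0.72 ± 0.07), and at 30 min it stood at -0.11 ± 0.07 (adjusted p = 0.687). ID2 lies on chromosome 2 (8678845 to 8684453, plus strand), and the antisense gene ID2-AS1 shares 38 of its exon bases (1.72%), so reads there cannot be told apart without strand.

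ID4 was close to the limit of detection. It had 28, 62 and 51 counts at 0 min, 28, 35 and 25 counts at 10 min, 117, 125 and 33 counts at 30 min, and 38, 16 and 33 counts at 360 min, in libraries of unequal depth. On the CPM scale the 360 min libraries stood at 0.55, 0.47 and 0.53, the 30 min libraries at 1.38, 1.81 and 0.92 and the 0 min libraries at 0.75, 0.93 and 0.97. The 30 min libraries thus spread widely, and only replicates 1 and 2 lay above the 0 min range. The log2 fold change at 30 min was 0.65 ± 0.23 against 0 min and did not pass (adjusted p = 0.345). At 360 min it was -0.76 ± 0.25, and that value ran from -0.86 to -0.52 under other settings.

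The 4 ID genes together summed to 154 ± 8.12 CPM at 360 min and 391 ± 28.5 CPM at 0 min (SD, n = 3 each). ID1 made up 40.3% ± 1.33 of this sum at 360 min and 51.8% ± 1.71 at 0 min. The ratio of ID1 to ID2 in CPM, not corrected for length, was 1.01 ± 0.0529 at 360 min and 2.01 ± 0.171 at 0 min. The ratio of ID1 to ID3 was 2.06 ± 0.126 at 360 min and 2.35 ± 0.111 at 0 min. The pool of ID message was thus smaller at 360 min and held a smaller share of ID1, and the ratio to ID2 differed more between the times than the ratio to ID3.

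**Figure D2:**
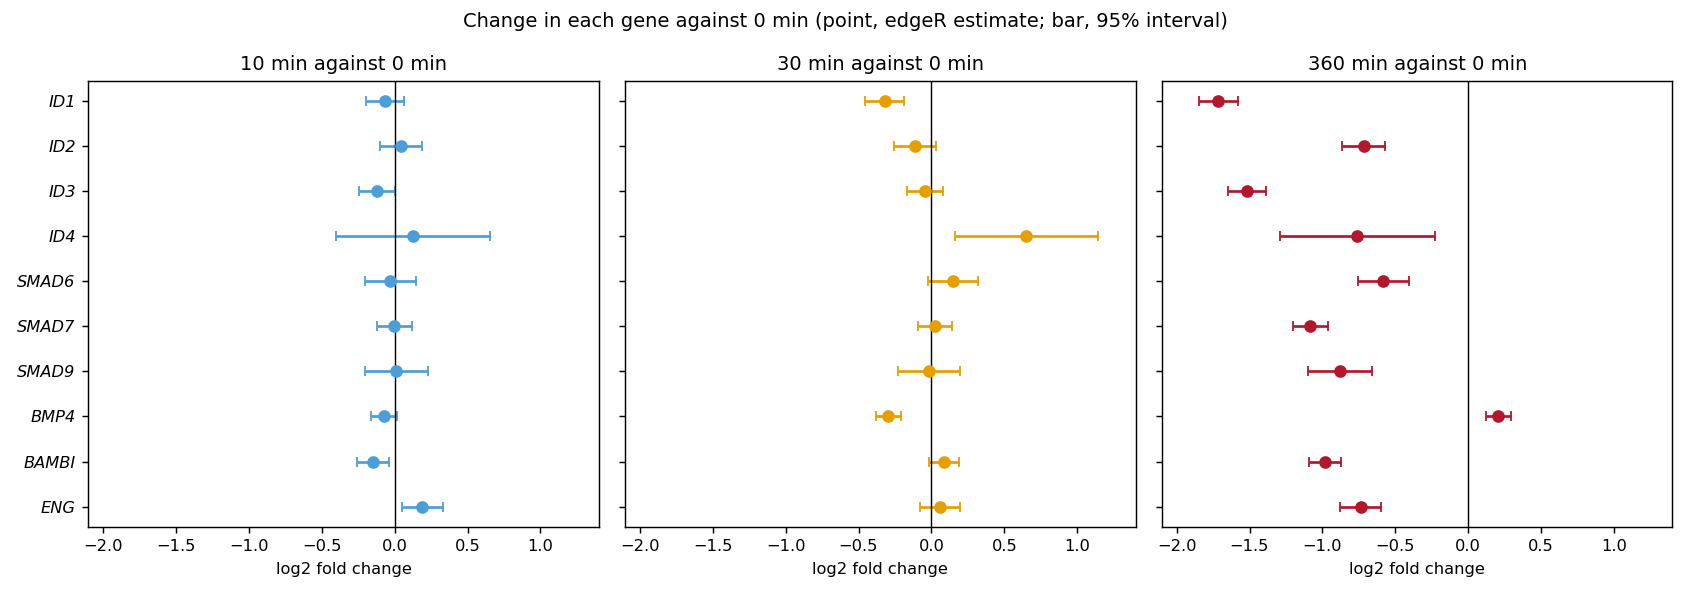
Log2 fold change of each gene against 0 min (horizontal axis) at 10, 30 and 360 min (panels from left to right); points are edgeR estimates and bars are 95% intervals. At 30 min ID1 (-0.32) and BMP4 (-0.30) are set off to the left of 0, and at 360 min all genes but BMP4 (0.21) lie to the left.

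The inhibitory SMAD genes did not share the 30 min decrease. SMAD7, whose product blocks activated receptors and directs them to degradation, stood at 24.9, 26.6 and 23.3 CPM at 0 min, 25.9, 24.0 and 24.9 CPM at 10 min, 25.6, 25.7 and 24.9 CPM at 30 min, and 11.6, 12.2 and 11.5 CPM at 360 min. Levels at the first 3 times overlapped and the 360 min libraries lay below them all. SMAD7 at 360 min was 2.12-fold lower than at 0 min (log2 fold change -1.08 ± 0.06), and at 30 min its log2 fold change was 0.03 ± 0.05 (adjusted p = 0.944, 95% interval -0.09 to 0.14). The gene lies on chromosome 18 (48919853 to 48952052, minus strand).

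SMAD6, which acts mainly on BMP receptors and on SMAD1, stood at 12.6, 12.8 and 13.2 CPM at 0 min, 12.4, 13.5 and 12.0 CPM at 10 min, 14.7, 14.5 and 13.5 CPM at 30 min, and 8.94, 7.55 and 9.21 CPM at 360 min. All 30 min libraries lay above the 0 min libraries, and all 360 min libraries lay below them. The 30 min log2 fold change of 0.15 ± 0.08 did not pass (adjusted p = 0.635), and at 360 min it was -0.58 ± 0.08. SMAD6 lies on chromosome 15 (66702228 to 66782848, plus strand).

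SMAD9 encodes 1 of the 3 SMADs that BMP receptors activate. It stood at 6.16, 6.01 and 6.84 CPM at 0 min, 6.41, 6.24 and 6.52 CPM at 10 min, 5.64, 6.67 and 6.52 CPM at 30 min, and 3.40, 3.14 and 3.75 CPM at 360 min. The first 3 times overlapped and every 360 min library was lower. SMAD9 at 360 min was 1.84-fold lower than at 0 min (log2 fold change -0.88 ± 0.10), and at 30 min it stood at -0.02 ± 0.10 (adjusted p = 0.989). SMAD9 lies on chromosome 13 (36844831 to 36920765, minus strand).

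At the receptor level, BAMBI encodes a membrane protein that resembles a type I receptor without its kinase and competes with it. BAMBI stood at 39.0, 41.9 and 42.4 CPM at 0 min, 38.5, 35.5 and 37.4 CPM at 10 min, 45.5, 42.9 and 42.5 CPM at 30 min, and 21.5, 21.1 and 19.8 CPM at 360 min. All 10 min libraries lay below and all 30 min libraries above the 0 min range, by small margins, and the 360 min libraries stood well below. Neither early value passed, with -0.15 ± 0.05 at 10 min (adjusted p = 0.316) and 0.09 ± 0.05 at 30 min (adjusted p = 0.661). Between 30 and 10 min the log2 fold change was 0.23 ± 0.05, with an adjusted p of 0.064 by edgeR and 0.011 by DESeq2. This difference was called in 2 of 15 alternative settings, DESeq2 among them. At 360 min BAMBI was 1.98-fold lower than at 0 min (log2 fold change -0.98 ± 0.05). It lies on chromosome 10 (28677342 to 28682939, plus strand).

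ENG encodes endoglin, a co-receptor best known in endothelial cells, whose defining markers were at or near 0 here. ENG stood at 27.9, 26.6 and 25.9 CPM at 0 min, 32.4, 30.5 and 28.8 CPM at 10 min, 28.8, 27.9 and 26.9 CPM at 30 min, and 15.1, 15.5 and 17.6 CPM at 360 min. The 10 min libraries lay above the 0 min range and the 360 min libraries below it. The 10 min log2 fold change of 0.19 ± 0.06 did not pass (adjusted p = 0.316), and at 360 min ENG was 1.67-fold lower than at 0 min (log2 fold change -0.74 ± 0.06). ENG lies on chromosome 9 (127815012 to 127854756, minus strand), and the antisense gene AL162586.1 shares 313 of its exon bases (7.95%).

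BMP4, the ligand, took a different course from the rest of the set. It stood at 107, 118 and 111 CPM at 0 min, 107, 102 and 111 CPM at 10 min, 91.1, 88.8 and 94.0 CPM at 30 min, and 129, 131 and 128 CPM at 360 min. Levels at 0 and 10 min overlapped, the 30 min libraries were the lowest 3 of all, and the 360 min libraries were the highest 3. BMP4 fell at 30 min by 0.30 on the log2 scale relative to 0 min (SE 0.04, edgeR adjusted p = 0.0028, 3 of 3 libraries), and it still passed when any 1 library of either group was left out. With 0 min replicate 1 as the lone 0 min library it did not (log2 fold change -0.23, adjusted p = 0.147). It also fell at 30 min relative to 10 min by 0.22 (SE 0.04, edgeR adjusted p = 0.0285), which no longer passed when replicate 1 (adjusted p = 0.149) or 3 (0.125) at 10 min or any replicate at 30 min (0.061 to 0.125) was omitted. Nor did this difference pass with total-count scaling, with no filter or with a term for replicate number. It was called in 6 of 15 alternative settings and not called in 9. All 10 min libraries had the high mitochondrial share, whereas 30 min replicate 1 did not. At 360 min BMP4 was 1.15-fold higher than at 0 min (log2 fold change 0.21 ± 0.04) and 1.42-fold higher than at 30 min (0.50 ± 0.04). BMP4 lies on chromosome 14 (53949736 to 53958761, minus strand).

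Counted over the set, 0 of 10 genes passed the test at 10 min against 0 min, where 0.0169% of all genes tested passed, and 2 of 10 had groups that did not overlap, where 15.5% of all genes had such groups. At an unadjusted p under 0.05 there were 2, BAMBI and ENG, where 1941 of the 17779 genes tested were under it, and DESeq2 also called 0. At 30 min against 0 min 2 of 10 passed, ID1 and BMP4, where 0.765% of all genes passed, and both were lower, where 0.585% were. Groups did not overlap for 4 of 10, ID1, BMP4, SMAD6 and BAMBI, where 14.5% of all genes had such groups. At 30 min against 10 min 1 of 10 passed, BMP4, where 0.574% of all genes passed, and lower, where 0.411% were, while DESeq2 called 3. Groups did not overlap for 5 of 10, where 17.4% of all genes had such groups. At 360 min against 0 min all 10 lay past the same threshold, 9 lower and 1 higher, where 18.1% of all genes did, 9.19% lower and 8.89% higher. In each of the 10 the groups did not overlap, where 35.6% of all genes had such groups. At 360 min against 30 min all 10 did as well, in the same directions gene by gene, where 22.7% of all genes lay past it, 11.3% lower and 11.4% higher. Nothing is read from the counts that involve 360 min, since those libraries chose the members. The members' median log2 fold change against 0 min was -0.02 for 10 min, 0.01 for 30 min and -0.82 for 360 min, while that of all genes was -0.00, 0.00 and 0.00.

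**Figure D3:**
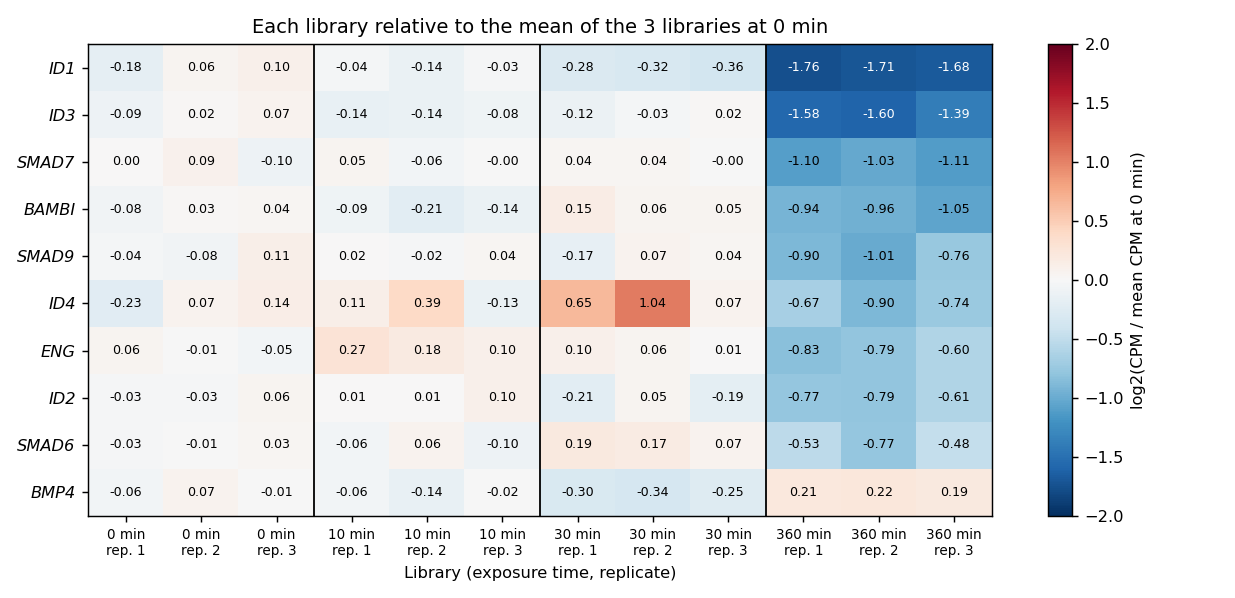
Log2 of each library's CPM over the mean CPM at 0 min (colour and printed value) for the 10 genes (rows) in the 12 libraries (columns, by exposure time and replicate). The 0 min libraries range from -0.23 to 0.14 across the genes, ID1 lies between -1.76 and -1.68 at 360 min, and the 30 min columns of ID4 range from 0.07 to 1.04.

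The members' 360 min values were also read within each side of the mitochondrial split, which divides the replicates of both groups. On the high side, with 1 library at each time, log2 of the 360 min level over the 0 min level was -1.50 for ID1, -1.29 for ID3, -1.11 for SMAD7, -0.98 for BAMBI and 0.25 for BMP4. On the low side, with 2 libraries at each time, the values were -1.81, -1.63, -1.06, -0.98 and 0.19. Once the group means were removed, pairs of members other than BMP4 varied together only in part, with Pearson correlations of the residuals over 12 libraries from -0.56 to 0.81 and a median of 0.13 over 36 pairs. These correlations are a description, and the libraries share their depth and mitochondrial share across genes.

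The genes whose profile over the 12 libraries was most like that of ID1 were PLXNA2 (a plexin, a receptor for semaphorins), ITPR1 (a calcium release channel), SLC2A1 (the glucose transporter GLUT1), CXXC5 (a zinc finger protein) and GRAMD1A (a sterol transfer protein). Likeness was the Pearson correlation of log2 CPM with ID1 among 12491 genes whose mean log2 CPM reached 1, and it was 0.988, 0.987, 0.987, 0.983 and 0.982 for these 5. Of the members, ID3 ranked highest on this measure at 0.978, followed by SMAD7 at 0.971, ID2 at 0.969 and SMAD9 at 0.964. The 360 min libraries stand apart from the other 9 in all of these genes, so the values mostly describe that gap. For the 5 genes outside the members, Spearman correlations with ID1 were lower, from 0.790 to 0.888. With the group means removed, their Pearson correlations with ID1 ran from 0.21 to 0.80. PLXNA2 stood at 49.2 ± 2.08 CPM at 360 min and 81.3 ± 0.58 CPM at 0 min, and SLC2A1 at 410 ± 5.22 CPM at 360 min and 580 ± 10.5 CPM at 0 min (SD, n = 3 each). These differences of 0.73 and 0.50 on the log2 scale were smaller than that of ID1.

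Beyond the 10 members, 89 other genes of the pathway were followed, of which 56 passed the filter and 16 had no count in any library. At 10 min 0 of 56 passed the edgeR test, 8 did at an unadjusted p under 0.05, as did 1941 of all 17779 genes, and DESeq2 called 1. At 30 min 2 passed, both lower, against 0.585% of all genes. HEY1, a Notch and BMP target that encodes a transcriptional repressor, fell by 0.72 on the log2 scale at 30 min (SE 0.11, edgeR adjusted p = 0.0055), to 5.31 ± 0.53 CPM, against 8.78 ± 0.51 CPM at 0 min (SD, n = 3 each). TOB2, which encodes an anti-proliferative protein of a family that restrains SMAD signalling, fell by 0.38 at 30 min (SE 0.05, adjusted p = 0.0037), to 26.7 ± 1.06 CPM, against 34.7 ± 1.55 CPM at 0 min. TOB2 was higher at 360 min than at 0 min, by 0.21 ± 0.05 (adjusted p = 0.013), and so had its lowest level at 30 min and its highest at 360 min, the same order as BMP4. Omitting 0 min replicate 2 or, separately, 360 min replicate 1 raised the adjusted p of TOB2 at 360 min to 0.059. The 30 min calls of HEY1 and TOB2 against 0 min each held in 15 of 16 alternative settings. At 30 min against 10 min 2 of 56 passed, both lower, against 0.411% of all genes. These were HEY1 (log2 fold change -0.66), called in 11 of 15 alternative settings, and TOB2 (-0.32), called in 10 of 15.

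At 360 min against 0 min, 22 of the 56 passed, against 18.1% of all genes tested. There were 19 lower and 3 higher, against 9.19% and 8.89% of all genes. The median log2 fold change of the 56 was -0.07. These lists were drawn up with earlier results of these data known. Their counts and p-values at 360 min are therefore a description and not independent evidence about the pathway. Of 4 ligands tested among 12 listed, 1 passed, against 18.1% of all genes. GDF7, also called BMP12, fell by 0.73 (SE 0.09, adjusted p = 9.4e-05), to 4.31 ± 0.22 CPM at 360 min, against 7.14 ± 0.23 CPM at 0 min. BMP6, the ligand that drives hepcidin in liver, was too variable to place, at 1.21, 0.652 and 0.335 CPM at 360 min and 1.04, 0.537 and 0.741 CPM at 0 min (log2 fold change -0.03 ± 0.40, adjusted p = 0.978). BMP2 was not tested, with 5 counts in all libraries together.

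Receptor genes were lower by small amounts where they passed, in 4 of 10 tested, where 9.19% of all genes passed and were lower. BMPR2, the type II receptor of BMPs, fell by 0.28 (SE 0.05, adjusted p = 0.0015), to 25.9 ± 0.18 CPM at 360 min, against 31.4 ± 1.54 CPM at 0 min. TFR2, a transferrin receptor that takes part in hepcidin control, fell by 0.21 (SE 0.04, adjusted p = 0.0018). ACVR1, a type I receptor, fell by 0.22 (SE 0.06, adjusted p = 0.019), which no longer passed when 0 min replicate 3 (adjusted p = 0.056), 360 min replicate 2 (0.052) or 360 min replicate 3 (0.065) was omitted. NEO1, the hemojuvelin-binding receptor neogenin, fell by 0.53 at a level near 1 CPM (SE 0.17, adjusted p = 0.044), and was not called when any 1 library of the compared groups other than 360 min replicate 3 was left out (adjusted p 0.074 to 0.14). BMPR1A, the main type I receptor, stood at 0.08 ± 0.03 and did not pass (adjusted p = 0.113).

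Of 5 other SMAD genes tested, 1 was called higher and 1 lower, against 8.89% and 9.19% of all genes. SMAD5 rose by 0.27 ± 0.05 (adjusted p = 0.0043), with 53.4, 60.6 and 55.7 CPM at 360 min and 44.9, 48.8 and 47.1 CPM at 0 min. SMAD1 fell by 0.25 (SE 0.07, adjusted p = 0.026), with 13.4, 14.2 and 13.3 CPM at 360 min and 14.6, 17.1 and 16.7 CPM at 0 min. The groups did not overlap for either gene, but SMAD1 no longer passed when replicate 2 (adjusted p = 0.107) or 3 (0.088) at 0 min was omitted, or when replicate 1 (0.083) or 3 (0.085) at 360 min was. Over 16 alternative settings the log2 fold change of SMAD1 ran from -0.32 to -0.10. SMAD4, the common partner, stood at 0.07 ± 0.05 (adjusted p = 0.366). Antisense genes overlap SMAD1 and SMAD5, and their reads cannot be told apart without strand.

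Extracellular antagonists passed in 3 of 7 tested among 18 listed, all lower, against 9.19% of all genes. FST encodes follistatin, which binds activins and some BMPs, and it fell by 0.79 (SE 0.06, adjusted p = 2.2e-06), with 11.4, 11.6 and 11.0 CPM at 360 min and 20.0, 19.9 and 18.8 CPM at 0 min. FSTL3, a follistatin relative, fell by 0.50 (SE 0.08, adjusted p = 8.6e-04), and NBL1, a DAN family antagonist, fell by 0.31 (SE 0.07, adjusted p = 0.0050). A readthrough gene model, MINOS1-NBL1, shares 15.35% of the exon bases of NBL1. Ligand and antagonist messages thus both included genes that were lower at 360 min.

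Of 19 intracellular regulators tested, 6 were lower and 2 higher, against 9.19% and 8.89% of all genes. SKIL, a SMAD co-repressor that is itself induced by SMADs, fell by 0.72 (SE 0.13, adjusted p = 0.0022), to 15.6 ± 0.67 CPM at 360 min, against 25.8 ± 1.32 CPM at 0 min. Its relative SKI fell by 0.23 (SE 0.04, adjusted p = 0.0011), and WWP1, a ubiquitin ligase that acts on SMAD pathway proteins, fell by 0.28 (SE 0.04, adjusted p = 3.3e-04). CTDSP2, a phosphatase that acts on SMADs, fell by 0.17 (SE 0.04, adjusted p = 0.014; 0.059 without 360 min replicate 1). USP15, a deubiquitinase, rose by 0.29 ± 0.06 (adjusted p = 0.0063). USP15, SKIL, BMPR2, TFR2 and NBL1 each kept the call at 360 min against 0 min in 15 of 16 alternative settings. CTDSP2 kept it in 14 and TOB2 in 13.

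Other target genes passed in 4 of 9 tested among 17 listed, all lower, against 9.19% of all genes. HAMP was scarce in this line, with 2, 2 and 6 counts at 360 min, around the floor of 3 counts, and 15, 30 and 16 counts at 0 min. In CPM these were 0.029, 0.059 and 0.096 at 360 min and 0.402, 0.448 and 0.304 at 0 min, and the groups did not overlap. The summed counts gave a level 6.41-fold lower at 360 min (exact Clopper-Pearson 95% interval 3.26 to 14.0, counting error only), and the fitted log2 fold change was -2.62 ± 0.48 (edgeR adjusted p = 0.0024). GATA2, which encodes a blood and endothelial transcription factor, fell by 0.62 (SE 0.07, adjusted p = 9.7e-05), to 8.55 ± 0.49 CPM at 360 min, against 13.2 ± 0.28 CPM at 0 min. DLX2, a homeobox gene, fell by 0.29 (SE 0.05, adjusted p = 0.0024). HES1, a repressor best known as a Notch target, fell by 0.66 at a level near 2 CPM (SE 0.19, adjusted p = 0.029), and was not called when any 1 library of the compared groups other than 360 min replicate 3 was left out (adjusted p 0.053 to 0.11).

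The E proteins that ID proteins bind gave no call. TCF3 stood at 121, 114 and 128 CPM at 360 min and 124, 124 and 127 CPM at 0 min, a log2 fold change of -0.04 ± 0.04 (adjusted p = 0.522). TCF12 stood at 69.4 ± 4.16 CPM at 360 min and 71.8 ± 2.29 CPM at 0 min (log2 fold change -0.05 ± 0.04, adjusted p = 0.487), and the groups overlapped for both genes. TCF4 had 1 count in all libraries together and was not tested. At 360 min the summed ID message was thus lower while both tested E protein genes overlapped their 0 min levels.

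**Figure D4:**
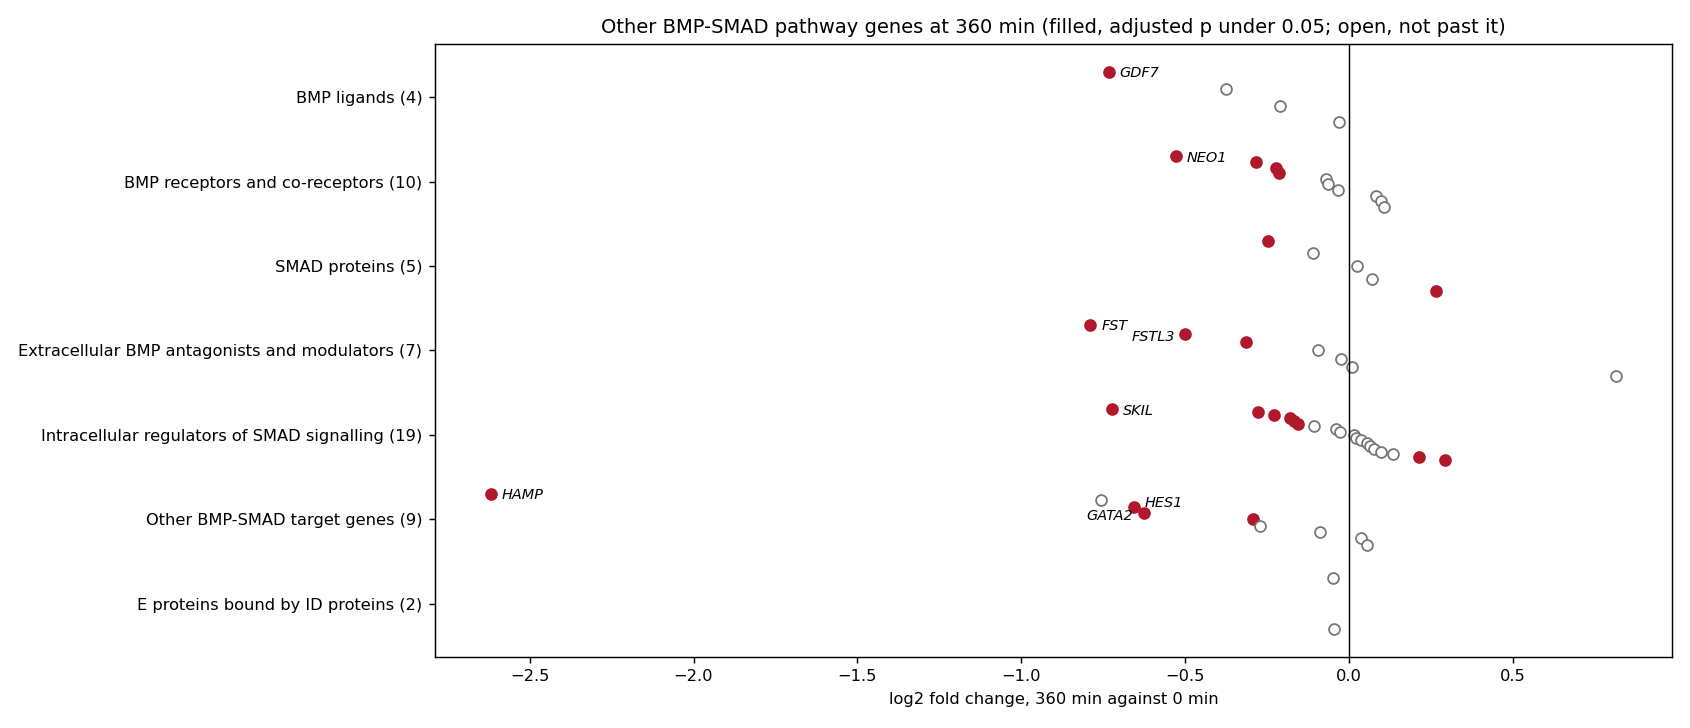
Log2 fold change at 360 min against 0 min (horizontal axis) of the 56 other pathway genes tested, by list (rows, with the number tested in brackets); filled points passed an adjusted p of 0.05 by edgeR and open points did not. Of the 22 filled points 19 lie to the left of 0, with HAMP at -2.62, and the 3 to the right are SMAD5, TOB2 and USP15.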

How the data were processed

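Polyadenylated RNA of 12 HepG2 samples was sequenced. The values are raw read counts for each gene, as the authors deposited them. HISAT2, DESeq2 and GRCh38 are named, per the submitters' processing notes. How reads were counted, on which annotation and with which strand setting is not given in the sources used here. These counts were tested with edgeR 4.0.16 in R 4.3.3 after filterByExpr and TMM scaling (factors 0.981 to 1.014). The quasi-likelihood fit took in all 12 libraries, with exposure time as the factor (8 residual degrees of freedom, biological coefficient of variation 9.72%). Two-sided p-values were Benjamini-Hochberg adjusted over 17779 genes, with a threshold of 0.05. They weigh each difference against the spread between these replicates. The standard error is the absolute log2 fold change over the square root of F. No replicate pair was identical or within sampling noise. The test was also run on simulated counts, drawn for independent libraries with the spread fitted to these data. That run cannot show how the test behaves under the differences between libraries described here. Positions and exon lengths come from GENCODE 29 (58394 identifiers, 96.34%, matched). The members and gene lists were chosen with earlier results of these data known. Named genes are all members, up to 4 called genes with the smallest p per list and direction, 12 pathway genes set by name, and the 5 genes most like ID1. Alternatives were DESeq2 1.42.0, limma voom 3.58.1, RLE and total-count scaling, 2 other filters, the compared groups alone, a replicate block, a term for the mitochondrial split (3%), 0 min replicate 1 as the lone 0 min library, thresholds of 0.01 and 0.10, and omission of each library.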

Additional observations from a re-analysis of the deposited data

How the results depend on the processing

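The counts of members at 360 min are a description, since those libraries chose the members; ID4 lay outside the threshold against 0 min in 11 of 16 alternatives. At 30 min against 0 min, 1 member was called at an adjusted p under 0.01, 1 with the compared groups alone, 1 with the replicate block (ID1 at adjusted p = 0.051) and 0 with 0 min replicate 1 as the lone 0 min library. At 30 min against 10 min, 0 were called at 0.01, with total-count scaling, with no filter or with the replicate block, 2 with the mitochondrial split term, and 3 at 0.10 or with DESeq2. Leaving out each library gave 0 to 0 members at 10 min, 1 to 2 at 30 min, 0 to 1 at 30 against 10 min, 9 to 10 at 360 min and 10 to 10 at 360 against 30 min. Of the other pathway genes, 1 was called at 10 min with DESeq2, 0 at 30 min with the lone library, 0 at 0.01 and 1 with the compared groups alone at 30 against 10 min, 14 at 0.01 and 12 with the lone library at 360 min, and 17 at 0.01 at 360 against 30 min; omissions gave 0 to 0, 2 to 2, 0 to 1, 16 to 20 and 20 to 25. Over all genes, calls at 10 min (3) ran from 1 to 25 with omissions and were 174 with DESeq2, 10 with the lone library, 9 with no filter, 7 with the compared groups alone, 6 with the replicate block, 5 at 0.10 and 1 at 0.01. Calls at 30 min (136) ran from 61 to 163 with omissions and were 271 with DESeq2, 62 at 0.01, 210 at 0.10, 67 with the compared groups alone and 52 with the lone library. Calls at 30 against 10 min (102) ran from 39 to 83 and were 290 with DESeq2, 37 at 0.01 and 214 at 0.10. Calls at 360 min (3215) were 1718 at 0.01 and 1751 with the lone library, and those at 360 against 30 min (4034) were 2256 at 0.01. The cause of these differences was not tested.

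Replicate numbers are not said to pair the samples. Same-numbered deviations correlated between -0.15 and 0.20, over 0.1 in 4 of 18 pairs, and 8 of 12 libraries correlated best with their own number. These weak correlations do not settle whether the numbers pair the samples. The main fit leaves the replicate block out, and the fit with it is given as an alternative. With the replicate block, 21 other pathway genes were called at 360 min and 25 at 360 against 30 min. Depth limits ID4 and HAMP, whose levels lie at or below 2 CPM, and DESeq2 gave HAMP no adjusted p at 360 min.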
